A study of Mus musculus with 16 samples.

Results

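The 50 genes described here copy DNA, drive cells from G1 into S phase or carry them through mitosis. They were taken by name from the 24421 genes of a count table of mouse skin RNA, and were sorted by textbook role into 16 S phase genes and 34 mitotic genes. The S phase genes cover licensing and the replicative helicase (10 genes), the replication clamp and nucleotide supply (3) and G1/S regulators (3). The mitotic genes cover cyclins, kinases and drivers of G2/M (9), chromosome structure (2), the chromosomal passenger complex (3), the spindle checkpoint and the anaphase-promoting complex (6), the kinetochore (4), the spindle (5) and cytokinesis (5).

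RNA came from the skin of female SKH-1 mice, a hairless strain, in 16 sequencing libraries that form 8 groups of 2. In the exposed groups, mice had received UVB at 60 mJ/cm2 in 2 sessions per week, and the epidermis was taken at week 2, 15 or 25. Each was set against the epidermis of unexposed mice (control) of the same week. Tumors of mice exposed for 25 weeks were set against whole skin of unexposed mice of that week, so that a tumor library and its control hold dermis and other layers that the epidermis libraries largely lack. The labels give no allele and no other agent for any group, and the ages of the mice and whether a library pools animals or tumors cannot be had from the labels and are not given here. Libraries carry the number 0 or 1 of their titles. Nothing says that these are separate mice: the p-values given below measure the spread of the libraries, which may be technical.

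In the cell cycle, MCM helicase complexes are loaded onto DNA in G1 with the help of Cdc6 and Cdt1, cyclin E and E2F1 open S phase, and ribonucleotide reductase and thymidine kinase supply nucleotides. Cyclin A and cyclin B with Cdk1 then drive mitosis, where kinetochores hold spindle microtubules, the checkpoint delays anaphase until all chromosomes are attached, and cytokinesis parts the daughter cells. In epidermis the dividing cells are basal keratinocytes and cells of the growing hair follicle, and UVB is known to cause a regenerative thickening of the epidermis in which keratinocytes divide more often.

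Library totals ran from 2905165 counts (week 2 control library 1) to 7959503 counts. The 2 libraries of each group differed beyond counting noise, with a chi-square per degree of freedom of 4.62 in tumors to 46.2 in whole skin. The keratinocyte genes Krt5 and Krt1 were present in every library, at 281 to 601 and 367 to 1184 CPM (counts scaled to the same TMM library size). Skeletal muscle markers, led by Atp2a1, summed to 4198 and 4039 CPM in tumors and to 2993 and 6002 CPM in whole skin, against 18.9 to 114 CPM in the 12 epidermis libraries. All 50 genes were tested in every comparison. Per kilobase of exon, mean levels over the 16 libraries ran from 1.90 CPM for Ccne2 and 2.04 CPM for Cenpf to 33.0 CPM for Cdca8 and 42.9 CPM for Pcna. None of the 50 came near the ceiling that removal of duplicate reads sets: the highest reached 0.432 counts per base, where the ceiling lay at 1.83 to 2.11.

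Summed over their genes, both sets stood higher in UVB epidermis than in control epidermis at every week. The 34 mitotic genes summed to 923 and 1236 CPM in UVB epidermis at week 2, against 296 and 301 CPM in control epidermis. At week 15 the sums were 1633 and 1837 CPM in UVB epidermis, against 481 and 1079 CPM in control epidermis. At week 25 they were 1111 and 863 CPM in UVB epidermis, against 453 and 454 CPM in control epidermis. The groups did not overlap at any week, but week 15 control library 1 stood far above the other 5 controls, and above UVB library 0 of week 2 and UVB library 1 of week 25. The 16 S phase genes summed to 456 and 629.6 CPM in UVB epidermis at week 2, against 266 and 234 CPM in control epidermis. Their sums were 678 and 715 CPM in UVB epidermis at week 15, against 287 and 459 CPM in control epidermis, and 684 and 534 CPM in UVB epidermis at week 25, against 336 CPM in both controls. In tumors the mitotic genes summed to 1672 and 1414 CPM, against 1316 and 1189 CPM in whole skin, and the S phase genes to 899.8 and 728 CPM, against 660.3 and 702 CPM. Tumors again lay above their controls in both sums, by less than UVB epidermis lay above its own. In bulk tissue, more dividing cells and more RNA of these genes per cell cannot be told apart.

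**Figure D1:**
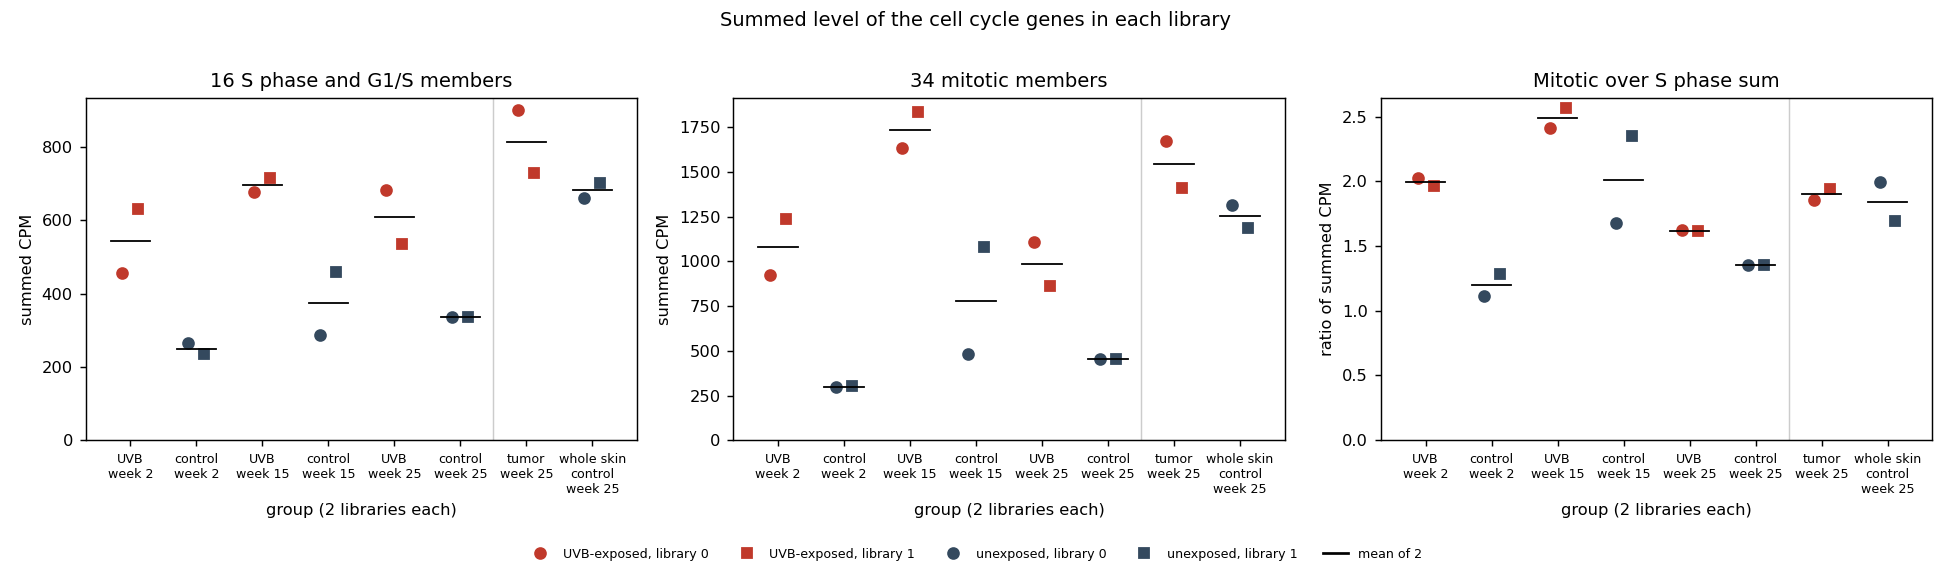
Summed CPM of the 16 S phase genes (left), of the 34 mitotic genes (middle) and their ratio (right) in each of the 16 libraries, with the group mean as a bar. Both UVB libraries lie above both controls in each week for both sums, and week 15 control library 1 has 1079 CPM of mitotic RNA beside 481 CPM in library 0 of its group.

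The mitotic sum moved more than the S phase sum. The ratio of mitotic to S phase CPM was 1.99 ± 0.0427 in UVB epidermis at week 2, against 1.20 ± 0.121 in control epidermis (mean ± SD over 2 libraries). It was 2.49 ± 0.114 in UVB epidermis at week 15, against 2.01 ± 0.478 in control epidermis, and 1.62 ± 0.00798 in UVB epidermis at week 25, against 1.35 ± 0.00233 in control epidermis. The UVB libraries lay above the controls in each week, though at week 15 UVB library 0 at 2.41 stood close to control library 1 at 2.35. Tumors at 1.90 ± 0.0590 and whole skin at 1.84 ± 0.212 overlapped. These ratios are descriptions and were not tested.

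Promoters of these genes are shown as a description, and their part in the changes was not tested. RefSeq (GRCm38.p6) held a promoter for 42 of the 50 genes, and the 150 bases before the start were searched on both strands. The cell cycle genes homology region (CHR, searched as TTTGAA), which the MuvB complexes that control mitotic genes recognise, was found in 8 of 28 mitotic promoters and 1 of 14 S phase promoters, where 9.07% of all 32851 promoters held it. The CCAAT box, the site of NF-Y, was found in 20 of 28 mitotic and 8 of 14 S phase promoters, where 24.5% of all promoters held it. An E2F core (searched as TTNNCGC, where the NN stands for any pair of C and G) was found in 3 of 28 mitotic and 3 of 14 S phase promoters, where 5.47% of all promoters held it. For each of the 42 genes 1 promoter was used, the one nearest its start in the count table. The shares of all promoters count every promoter held, whether or not its gene was expressed in skin, so the sets are unlike. Matches of different motifs may overlap each other, and a match describes the letters and is not a bound site. The 6 windows below show 4 mitotic genes of different roles that rose with UVB, the S phase gene Rrm2 and, as a gene that was not called, Cdca8, which was added after its values were seen. Within its role, each gene shown had the smallest p over the weeks together among promoters that held a match. Every window therefore had to hold a match, while 31 of the 42 promoters held any. Capitals mark a match on either strand. A match on the other strand reads ATTGG for the CCAAT box, and for the CHR it reads TTCAAA.
Ccnb2 (chr9:70421555-70421704, minus strand): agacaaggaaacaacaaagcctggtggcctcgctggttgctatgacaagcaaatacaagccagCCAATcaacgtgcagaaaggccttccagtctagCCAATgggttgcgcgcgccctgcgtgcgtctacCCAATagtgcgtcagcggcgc
Top2a (chr11:99024190-99024339, minus strand): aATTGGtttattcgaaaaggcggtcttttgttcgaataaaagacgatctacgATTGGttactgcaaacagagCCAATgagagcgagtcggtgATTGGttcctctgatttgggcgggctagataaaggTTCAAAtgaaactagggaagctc
Ube2c (chr2:164769779-164769928, plus strand): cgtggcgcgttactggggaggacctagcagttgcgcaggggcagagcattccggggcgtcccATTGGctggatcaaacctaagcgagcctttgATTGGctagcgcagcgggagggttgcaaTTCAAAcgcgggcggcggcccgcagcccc
Kif11 (chr19:37376232-37376381, plus strand): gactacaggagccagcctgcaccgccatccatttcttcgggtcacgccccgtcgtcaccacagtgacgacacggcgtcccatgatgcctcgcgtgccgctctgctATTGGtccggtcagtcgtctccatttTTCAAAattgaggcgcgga
Rrm2 (chr12:24708104-24708253, plus strand): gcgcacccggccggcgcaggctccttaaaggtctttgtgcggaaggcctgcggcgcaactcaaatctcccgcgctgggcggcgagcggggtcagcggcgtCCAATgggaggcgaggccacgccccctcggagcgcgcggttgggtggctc
Cdca8 (chr4:124936918-124937067, minus strand): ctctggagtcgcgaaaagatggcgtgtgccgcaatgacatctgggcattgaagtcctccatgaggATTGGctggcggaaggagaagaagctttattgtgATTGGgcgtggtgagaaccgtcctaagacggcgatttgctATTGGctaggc
Kif11, Ube2c and Top2a held both a CHR and a CCAAT box, Ccnb2 and Cdca8 held 3 CCAAT boxes each with no CHR, and Rrm2 held 1 CCAAT box. Ccnb2, which rose with UVB, and Cdca8, which was not called, carried the same number of CCAAT boxes.

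Over the 3 weeks together, 44 of the 50 genes rose in UVB epidermis and 0 fell, where 14.4% of the 13478 genes tested were called up and 15.1% down (edgeR's quasi-likelihood test with week as a term, adjusted p under 0.05 over all genes). Unadjusted p was under 0.05 for 45 of the 50 (41.1% of all genes), and DESeq2 called 45 up and 0 down. Of the 34 mitotic genes 32 rose, with a median log2 fold of 1.71 over all 34, and of the 16 S phase genes 12 rose, with a median of 1.20 over all 16. The median over all genes tested was -0.02. All 6 UVB libraries lay above all 6 controls for 11 of the 50 genes, where 5.14% of all genes did so.

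Among S phase genes Rrm2, the regulated subunit of ribonucleotide reductase, had 66.1, 87.4 and 104 CPM as lowest, median and highest of the 6 UVB libraries, against 28.8, 32.7 and 40.6 CPM in the 6 controls. The arms did not overlap, and the log2 fold was 1.37 ± 0.11 (± standard error of the fit, adjusted p = 3.09e-05). Ccne1, cyclin E1, had 15.4, 18.3 and 21.7 CPM in the UVB libraries, against 2.17, 4.93 and 8.89 CPM in the controls. It too was higher in all 6 UVB libraries than in any control (1.88 ± 0.26, adjusted p = 0.000514). Mcm3, a subunit of the replicative helicase, had 31.4, 47.1 and 57.1 CPM in the UVB libraries, against 8.18, 15.4 and 31.1 CPM in the controls. Its highest control, week 15 library 1, came within 1 CPM of its lowest UVB library, that of week 2 (1.52 ± 0.22, adjusted p = 0.000681). Of the 10 licensing and helicase genes 7 rose, as did all 3 genes of the clamp and of nucleotide supply and 2 of the 3 G1/S regulators.

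Among mitotic genes Mad2l1, a core protein of the spindle checkpoint, had 22.7, 35.6 and 41.6 CPM in the UVB libraries, against 5.14, 9.45 and 20.4 CPM in the controls. Its arms did not overlap (1.80 ± 0.23, adjusted p = 0.00037). Birc5, the survivin subunit of the chromosomal passenger complex, had 34.4, 49.2 and 72.6 CPM in the UVB libraries, against 7.61, 11.3 and 39.0 CPM in the controls. Only week 15 control library 1 reached into the range of the UVB libraries (1.90 ± 0.25, adjusted p = 0.00042). Tpx2, which nucleates spindle microtubules and activates Aurora A, had 27.0, 40.5 and 62.8 CPM in the UVB libraries, against 9.32, 11.7 and 26.6 CPM in the controls. The lowest UVB library stood just above the highest control (1.60 ± 0.21, adjusted p = 0.00037). Plk1, a kinase of mitotic entry and exit, had 7.53, 11.8 and 28.1 CPM in the UVB libraries, against 0, 2.11 and 8.53 CPM in the controls. It had the highest log2 fold of the 50 (2.59 ± 0.38, adjusted p = 0.000689), with 1 control, that of week 15, inside the UVB range. By role, all 9 drivers of G2/M, both genes of chromosome structure, all 4 kinetochore genes, all 5 spindle genes and all 5 cytokinesis genes rose, with 2 of 3 passenger complex genes and 5 of 6 genes of the checkpoint and the anaphase-promoting complex.

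In all, 6 genes were called neither at a single week nor over the weeks together: the S phase genes Mcm7, Cdc6, Cdc45 and Ccne2 and the mitotic genes Cdca8 and Ttk. Ttk, the checkpoint kinase Mps1, had 29.8, 36.6 and 45.9 CPM in the UVB libraries, against 31.6, 41.5 and 57.4 CPM in the controls. It had the lowest log2 fold of the 50 (-0.20 ± 0.14, adjusted p = 0.285), and the arms overlapped. Cdca8, the borealin subunit that holds the passenger complex together with survivin and Aurora B, had 46.6, 58.8 and 75.4 CPM in the UVB libraries, against 41.5, 59.3 and 77.9 CPM in the controls. Its log2 fold was -0.01 ± 0.15, while its partners Birc5 and Aurkb had 1.90 ± 0.25 and 1.84 ± 0.33 in the same fit. Mcm7 had 33.3, 51.9 and 64.3 CPM in the UVB libraries, against 26.2, 42.7 and 51.0 CPM in the controls (0.29 ± 0.14), while the 5 other subunits of the same hexamer, Mcm2 to Mcm6, all rose, by 0.88 to 1.57. Cdc45, which joins the MCM ring in the active helicase, stood at 0.12 ± 0.17. Per kilobase, Cdca8 was next to Pcna in mean level, with 142 to 486 counts per library. Exons of Ccne2 overlap those of Ints8 on the other strand by 1734 bases in the deposited table, and the strand setting of the counting is not given, so its counts are uncertain. Tk1, Ccna2, Foxm1, Cdc20, Nusap1 and Kif20a also overlap another gene's exons there, by 52 to 1115 bases. In GENCODE M21 a further 4 genes do, Mcm7 (with Cops6), Cdc45 (with Ufd1), Plk1 and Prc1, and pseudogenes of Pcna, Ccnb1 and Ccnb2 are annotated.

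**Figure D2:**
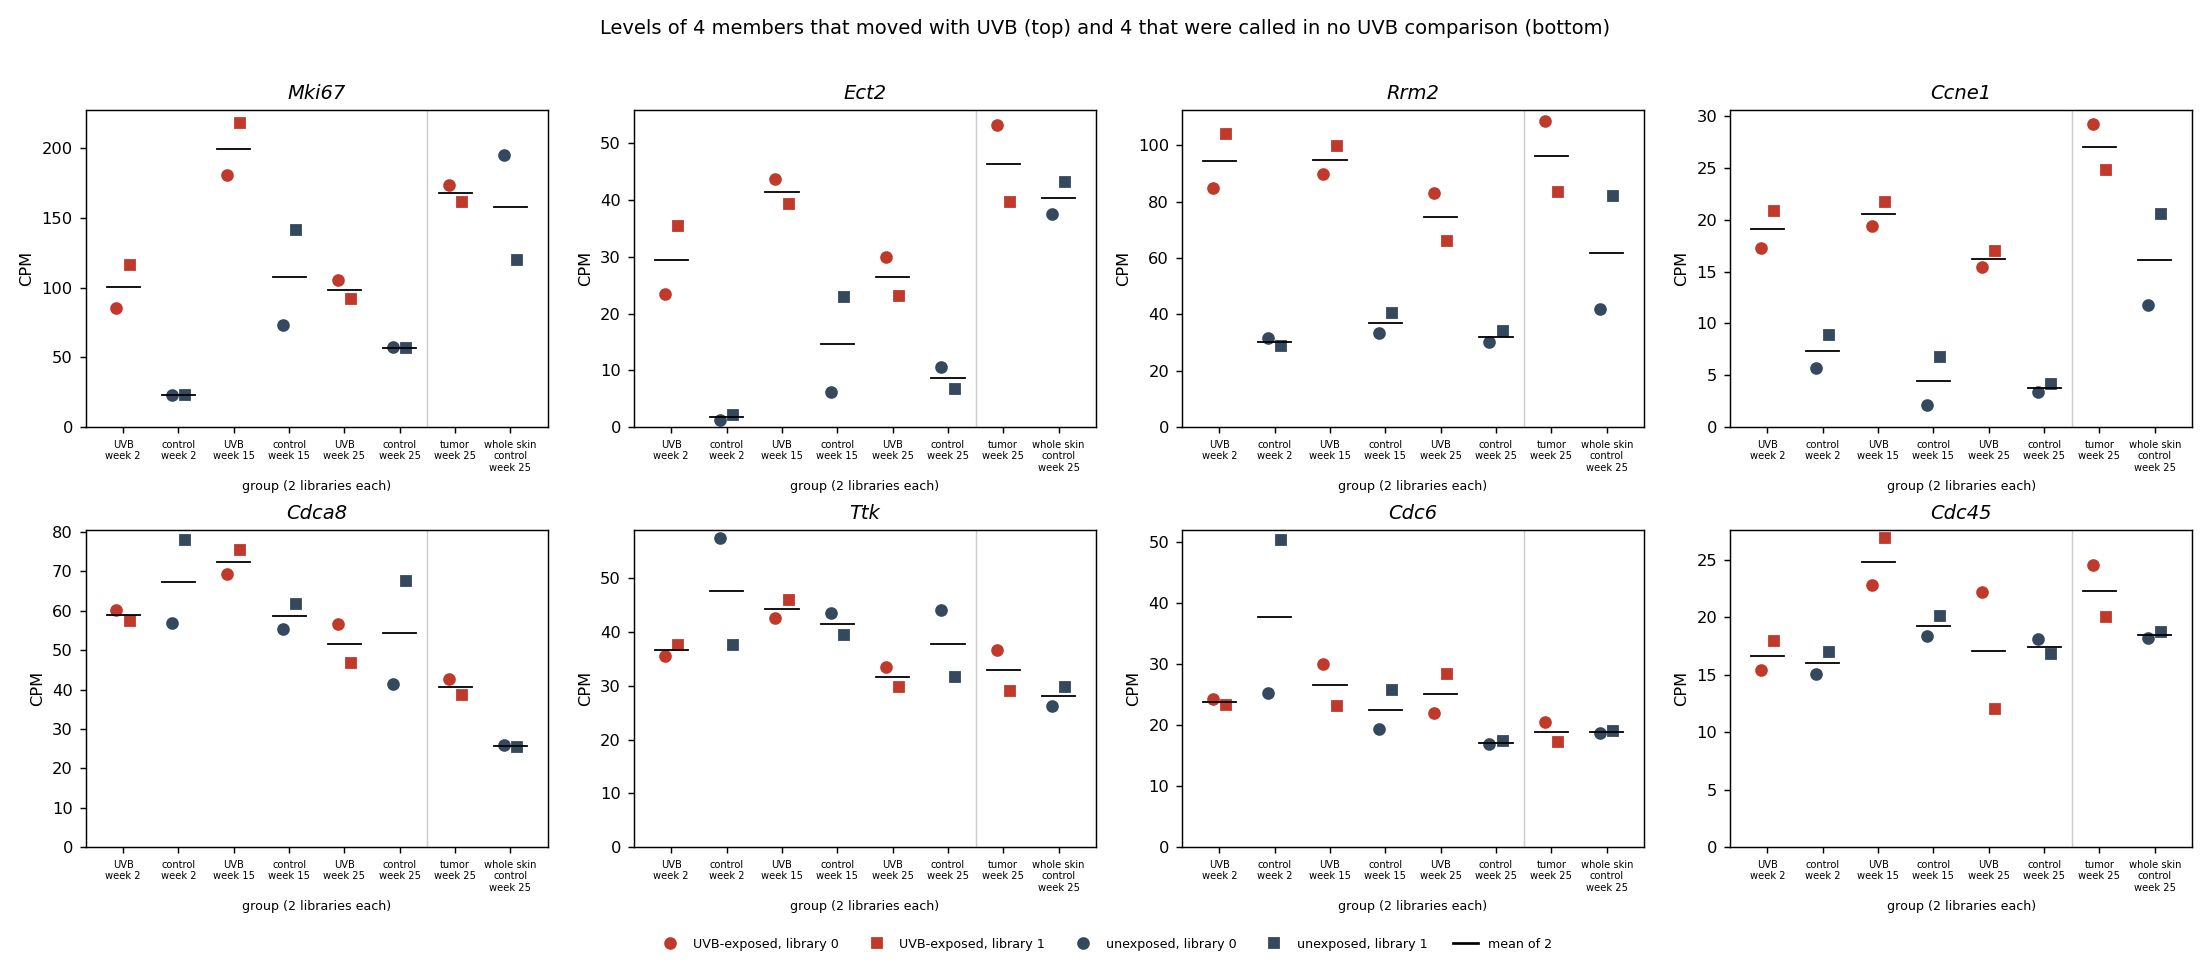
CPM in each of the 16 libraries for 4 genes that rose with UVB (Mki67, Ect2, Rrm2 and Ccne1, top) and 4 that were called in no UVB comparison (Cdca8, Ttk, Cdc6 and Cdc45, bottom), with group means as bars. Rrm2 lies at 66.1 CPM or more in every UVB epidermis library and at 40.6 CPM or less in every control, while UVB and control points of Ttk overlap at weeks 15 and 25.

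At week 2, 41 genes were called up and 0 down in UVB epidermis, where 8.09% of 13478 genes were called up and 9.74% down. Unadjusted p was under 0.05 for 42 (35.3% of all genes), and DESeq2 called 42 up and 0 down. Of the mitotic genes 31 of 34 rose (median log2 fold of all 34, 2.43), and of the S phase genes 10 of 16 (median of all 16, 1.24), with a median of -0.03 over all genes. For 43 genes both UVB libraries lay above both controls (31.4% of all genes) and for 2, Cdc6 and Ttk, below them (28.9%).

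Mcm3 had 31.4 and 46.5 CPM in UVB epidermis at week 2, against 8.18 and 8.89 CPM in control epidermis. Both controls were low and alike (2.17 ± 0.38, adjusted p = 0.00633). Mcm4, another helicase subunit, had 46.7 and 62.3 CPM in UVB epidermis, against 20.9 and 12.3 CPM in control epidermis. The groups stood apart (1.64 ± 0.32, adjusted p = 0.00884). Rrm2 had 85.1 and 104 CPM in UVB epidermis, against 31.8 and 28.8 CPM in control epidermis, again without overlap (1.61 ± 0.19, adjusted p = 0.00259). Cdc6, the loader of the MCM ring, went the other way with 24.3 and 23.3 CPM in UVB epidermis, against 25.3 and 50.4 CPM in control epidermis. It had the lowest log2 fold at this week (-0.68 ± 0.32, adjusted p = 0.154), and control library 1, the shallowest of all, stood far above the other 3.

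Ect2, the exchange factor that switches on RhoA at the division plane, had 23.5 and 35.4 CPM in UVB epidermis at week 2, against 1.33 and 2.12 CPM in control epidermis. The controls rested on 7 and 5 counts beside 125 and 204 in UVB epidermis, and this was the highest log2 fold of the 50 (4.15 ± 0.65, adjusted p = 0.00478). Top2a, the topoisomerase that untangles sister chromatids, had 75.1 and 98.1 CPM in UVB epidermis, against 15.98 and 9.31 CPM in control epidermis. All 4 values were well apart (2.68 ± 0.40, adjusted p = 0.00417). Mki67, which coats mitotic chromosomes, had 85.2 and 116 CPM in UVB epidermis, against 23.0 and 23.3 CPM in control epidermis. Mad2l1 had 29.9 and 36.6 CPM in UVB epidermis, against 5.14 and 5.504 CPM in control epidermis. In both genes the controls agreed closely and the UVB libraries lay far above them (for Mki67, 2.09 ± 0.29, adjusted p = 0.00417, and for Mad2l1, 2.62 ± 0.35, adjusted p = 0.00341). Plk1 had 40 and 67 counts in UVB epidermis, against 5 and 0 in control epidermis, so that its log2 fold of 3.86 ± 0.77 (adjusted p = 0.00972) depends on the prior count of the fit. Without UVB library 1 the number of genes called up at this week was 6, where 0.508% of all genes were called up. Of the 41, 6 were called in all 19 alternatives, namely Rrm2, Pbk, Mki67, Top2a, Mad2l1 and Ect2.

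At week 15 all 50 log2 folds were above 0 (49.1% of all genes), but 7 genes were called up and 0 down, where 1.85% of 13478 genes were called up and 1.64% down. Unadjusted p was under 0.05 for 41 (20.4% of all genes), and DESeq2 called 31 up and 0 down. It also called more of all genes at this week, 1006 in either direction against 471 by edgeR. The called genes were Rrm2 and Ccne1 of the S phase set and Plk1, Aurka, Mad2l1, Kif11 and Kif20a of the mitotic set. Medians were 1.38 over the mitotic and 1.03 over the S phase genes, against -0.01 over all genes. Both UVB libraries lay above both controls for 46 genes (26.9% of all genes).

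Rrm2 had 89.7 and 99.9 CPM in UVB epidermis at week 15, against 33.6 and 40.6 CPM in control epidermis. The controls lay close together here (1.34 ± 0.18, adjusted p = 0.00704). Ccne1 had 19.4 and 21.7 CPM in UVB epidermis, against 2.17 and 6.76 CPM in control epidermis (2.16 ± 0.43, adjusted p = 0.0283). Kif11, the motor that pushes spindle poles apart, had 45.8 and 50.1 CPM in UVB epidermis, against 7.89 and 20.4 CPM in control epidermis. Control library 1 was the higher control for each of these genes, yet stayed below both UVB libraries (for Kif11, 1.73 ± 0.39, adjusted p = 0.0399). Kif20a, a motor of the central spindle, had 22.0 and 24.3 CPM in UVB epidermis, against 3.55 and 7.56 CPM in control epidermis (2.03 ± 0.42, adjusted p = 0.0317). Mad2l1 had 41.6 and 41.4 CPM in UVB epidermis, against 11.3 and 20.4 CPM in control epidermis (1.37 ± 0.30, adjusted p = 0.0384). In both genes control library 1 was again the higher control and stayed under the UVB libraries. Plk1 had 24.2 and 28.1 CPM in UVB epidermis, against 2.37 and 8.53 CPM in control epidermis, the highest log2 fold of the week (2.22 ± 0.53, adjusted p = 0.0478). Mcm10, a factor that activates the helicase, had 18.6 and 23.6 CPM in UVB epidermis, against 5.72 and 9.50 CPM in control epidermis. It missed the threshold narrowly (1.45 ± 0.35, adjusted p = 0.0507) although its groups were apart. Ttk, with the lowest log2 fold, had 42.7 and 45.9 CPM in UVB epidermis, against 43.6 and 39.4 CPM in control epidermis (0.08 ± 0.22, adjusted p = 0.88). The count of 7 rests on single libraries. It rose without control library 1 and fell without control library 0 or either UVB library. The share of all genes called up moved the same way, and each of these fits leaves 1 library in a group. The count was 4 without any 1 of the week 25 libraries, where 0.964% to 1.62% of all genes were called up. It was 11 without week 2 control library 1, where 2.95% of all genes were. With no filter on low counts it was 34, where 1146 genes of all were called in either direction. With library totals as the only scaling it was 3, and the share of all genes in that fit is not given here. In a fit of the 4 libraries alone it was 2, where 1.69% of all genes were called up.

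At week 25, 27 genes were called up and 0 down in UVB epidermis, where 10.6% of 13478 genes were called up and 10.9% down. Unadjusted p was under 0.05 for 40 (36.6% of all genes), and DESeq2 called 36 up and 0 down. They were 21 of 34 mitotic genes (median of all 34, 1.57) and 6 of 16 S phase genes (median of all 16, 1.03), beside a median of 0.01 over all genes. Both UVB libraries lay above both controls for 46 genes (37.1% of all genes).

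Cdt1, which loads the MCM ring with Cdc6, had 27.0 and 22.9 CPM in UVB epidermis at week 25, against 6.07 and 9.70 CPM in control epidermis. The groups were far apart (1.63 ± 0.32, adjusted p = 0.00809). Rrm2 had 83.0 and 66.1 CPM in UVB epidermis, against 30.2 and 34.04 CPM in control epidermis (1.19 ± 0.18, adjusted p = 0.00341). Ccne1 had 15.4 and 16.97 CPM in UVB epidermis, against 3.37 and 4.16 CPM in control epidermis (2.07 ± 0.43, adjusted p = 0.01). For Rrm2 and Ccne1 both controls stood well under the lower UVB library. Birc5 had 47.6 and 44.7 CPM in UVB epidermis, against 9.11 and 13.4 CPM in control epidermis. All 4 values kept their groups apart (2.00 ± 0.40, adjusted p = 0.00815). Ccnb2, cyclin B2, had 23.5 and 19.5 CPM in UVB epidermis, against 6.58 and 5.39 CPM in control epidermis (1.82 ± 0.41, adjusted p = 0.0141). Mad2l1 had 34.5 and 22.7 CPM in UVB epidermis, against 10.1 and 8.78 CPM in control epidermis (1.57 ± 0.31, adjusted p = 0.00809). Again no control reached a UVB library. Plk1 was the highest in log2 fold, with 12.1 and 9.82 CPM in UVB epidermis, against 1.86 and 2.46 CPM in control epidermis (2.30 ± 0.58, adjusted p = 0.0205). Ttk was the lowest, with 33.4 and 29.8 CPM in UVB epidermis, against 44.0 and 31.6 CPM in control epidermis (-0.28 ± 0.22, adjusted p = 0.388). The number of genes called up fell without either UVB library or either control of this week. Without UVB library 0 it lay near the share of all genes. The share of all genes called up fell in the same fits, and each of them leaves 1 library in a group. In a fit of the 4 libraries alone the number was 41, where 17.3% of all genes were called up. Rrm2 was called in all 19 alternatives at this week.

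At each of the 3 weeks 6 genes were called up: Rrm2, Ccne1, Plk1, Aurka, Mad2l1 and Kif11, as were 0.905% of all genes tested. The log2 fold was above 0 at all 3 weeks for 46 of the 50 and for 25.4% of all genes.

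**Figure D3:**
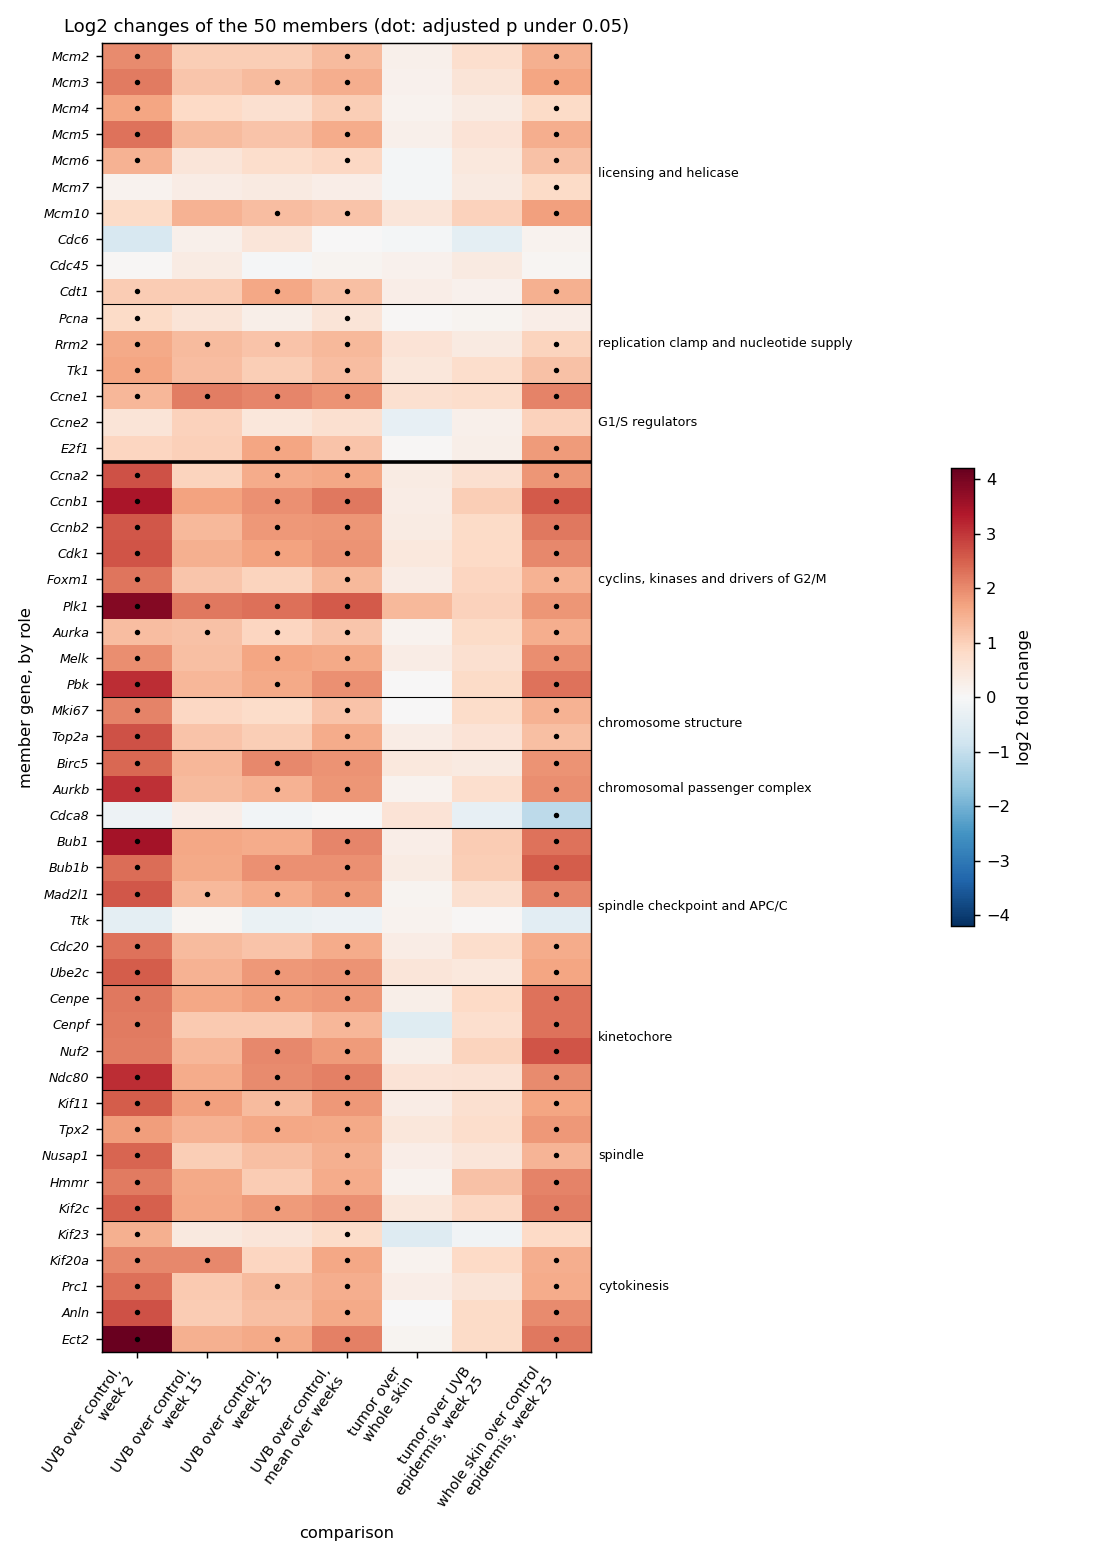
Log2 fold changes of the 50 genes (rows, by role, with S phase roles above the thick line) in 7 comparisons (columns), on a scale from blue (lower) to red (higher), with a dot where the adjusted p was under 0.05. Week 2 has 41 dots in deep red, week 15 has 7, week 25 has 27, and the columns of tumors over whole skin and over UVB epidermis have 0.

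The UVB effect at one week was also set against that at another, as a difference of log2 folds. None of the 50 passed for any pair of weeks in edgeR's test. For week 15 minus week 2, 11 of the 50 had an unadjusted p under 0.05 (8.83% of all genes), all mitotic, and edgeR called 0 of the 13478 genes and DESeq2 0 of the 50. The median difference was -1.10 over the mitotic genes and -0.14 over the S phase genes. For week 25 minus week 2, 9 of the 50 had an unadjusted p under 0.05, or fewer in proportion than the 27.6% of all genes that did, and 7.92% of all genes were called in either direction. DESeq2 called 3 of the 50, all with a smaller effect at week 25, and 1758 genes of all, against 1067 by edgeR. The medians were -1.08 over the mitotic and -0.25 over the S phase genes. For week 25 minus week 15, 0 of the 50 had an unadjusted p under 0.05 (9.76% of all genes) and edgeR called 0 genes of all, DESeq2 0 of the 50, with medians of 0.15 and -0.10. Ect2 had the lowest difference to week 2, -2.67 ± 0.82 at week 15 (adjusted p = 0.487) and -2.57 ± 0.83 at week 25 (adjusted p = 0.0787). Mki67 had -1.22 ± 0.38 at week 15 and -1.33 ± 0.39 at week 25 (adjusted p = 0.498 and 0.059), and Top2a had -1.49 ± 0.52 and -1.64 ± 0.53 (adjusted p = 0.513 and 0.0757). The smallest p values of the S phase set belonged to Mcm6 (-0.98 ± 0.46), Mcm3 (-0.995 ± 0.50) and Cdc6 (0.90 ± 0.45) at week 15 and to Cdc6 (1.21 ± 0.45), Mcm4 (-0.98 ± 0.43) and Pcna (-0.58 ± 0.32) at week 25. Between weeks 25 and 15 the differences ran from -1.12 ± 0.59 for Kif20a to 0.64 ± 0.73 for E2f1. The smallest p values there belonged, besides Kif20a, to Cdt1 (0.56 ± 0.44), Pcna (-0.32 ± 0.31), Cdc45 (-0.40 ± 0.41), Cdca8 (-0.39 ± 0.33) and Birc5 (0.62 ± 0.54), none under an unadjusted 0.05. E2f1 turned to -0.60 without week 15 control library 1.

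The control libraries of week 2 enter every difference to week 2, so the controls were compared with age as well. In control epidermis at week 25 over control epidermis at week 2, 5 of the 50 genes rose and 1 fell. Of all genes 8.47% were called up and 5.24% down, so the number that rose was near the share of all genes. The median was 0.78 over the mitotic and 0.18 over the S phase genes (0.67 with the 3 G1/S regulators left out). DESeq2 called 11 up and 1 down, but it also called more of all genes, 3030 in either direction against 1848 by edgeR. Both controls of week 25 lay above both of week 2 for 33 genes (31.7% of all genes) and below them for 3, Mcm10, Cdc6 and Ccne1 (33.1%). Mki67 had 57.2 and 56.7 CPM in controls of week 25, against 23.0 and 23.3 CPM in those of week 2. Each pair was nearly equal within itself (1.30 ± 0.29, adjusted p = 0.0217). Top2a had 36.8 and 46.2 CPM at week 25, against 15.98 and 9.31 CPM at week 2 (1.65 ± 0.40, adjusted p = 0.027). Ect2 had 10.6 and 6.78 CPM at week 25, against 1.33 and 2.12 CPM at week 2 (2.42 ± 0.68, adjusted p = 0.0424). Mcm4 had 36.1 and 41.4 CPM at week 25, against 20.9 and 12.3 CPM at week 2 (1.18 ± 0.32, adjusted p = 0.0362), and Mcm6 rose by 1.13 ± 0.34 (adjusted p = 0.0489). In these genes no week 2 control reached a week 25 control. Cdc6 fell, with 16.9 and 17.4 CPM at week 25, against 25.3 and 50.4 CPM at week 2 (-1.12 ± 0.32, adjusted p = 0.0457). The number called up fell without week 2 control library 1 or either control of week 25, and rose without week 2 control library 0. The share of all genes called up moved the same way, and each of these fits leaves 1 library in a group. The number was 13 without either control of week 15, where 9.56% to 9.8% of all genes were called up. It was 3 without any 1 UVB library of weeks 2 or 25 (5.63% to 5.64% of all genes). Without either UVB library of week 15 it was 2 (5.39% to 5.41%). Cell type markers were followed between these controls too. Of 10 basal keratinocyte markers 5 rose (median 1.13 over the 10), where 8.47% of all genes were called up. Of 18 hair follicle markers 1 fell (median -1.42), near the 5.24% of all genes called down. Of 7 fibroblast markers 2 fell (median -3.15), and of 8 macrophage markers 0 were called (median -0.80). Their part in the differences was not tested.

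The mean CPM of Mki67 in UVB epidermis was higher at week 15 than at the other weeks, with 85.2 and 116 CPM at week 2, 181 and 218 CPM at week 15 and 106 and 91.8 CPM at week 25. Top2a had 75.1 and 98.1 CPM at week 2, 146 and 170.1 CPM at week 15 and 99.2 and 74.5 CPM at week 25. Both week 15 libraries stood above the other 4 in both genes. Among controls, those of week 15 were the highest for Mki67, with 73.2 and 142 CPM. For Top2a they had 39.9 and 96.7 CPM, with library 1 above and library 0 between the controls of week 25.

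Cell type markers moved beside these genes. A list is said to be led by its gene with the highest mean over the 16 libraries, which need not lead in epidermis. Hair follicle matrix and shaft markers, led by Krt71, summed to 674 and 262 CPM in UVB epidermis at week 2, against 3575 and 3572 CPM in control epidermis. At week 15 they summed to 364 and 617 CPM in UVB epidermis, against 2503 and 1604 CPM in control epidermis, and at week 25 to 595 and 338 CPM in UVB epidermis, against 1913 and 1175 CPM in control epidermis. The follicle sum was thus lower in each UVB library than in any control, opposite to the dividing-cell genes. Basal keratinocyte markers, led by Krt5, summed to 1881 and 2375 CPM in UVB epidermis at week 2, against 1731 and 1308 CPM in control epidermis. They overlapped at week 15, with 2883 and 2651 CPM in UVB epidermis, against 2250 and 3171 CPM in control epidermis, and at week 25, with 3167 and 2886 CPM, against 2946 and 2684 CPM. Week 15 control library 1, with the high mitotic sum, also had the higher basal and the lower follicle sum of its pair. Macrophage markers, led by Csf1r, summed to 152 and 117 CPM in UVB epidermis at week 25, against 35.6 and 32.6 CPM in control epidermis. Of the 8, 6 rose (median log2 fold 3.67), where 10.6% of all genes were called up. Fibroblast markers, led by Col3a1, summed to 72.6 and 80.9 CPM in UVB epidermis at week 2, against 79.3 and 105 CPM in control epidermis, to 114 and 126 CPM at week 15, against 68.1 and 137 CPM, and to 269 and 141 CPM at week 25, against 68.8 and 72.2 CPM. Of the 7 tested, 1 rose and 1 fell at week 2 and again at week 15 (medians -2.31 and -0.59), and 6 rose at week 25 (median 4.30). Of all genes 8.09% were called up and 9.74% down at week 2, so the counts of that week were near these shares. At week 15 the shares were 1.85% and 1.64%, and at week 25 the share called up was 10.6%. The part of these cells in the results was not tested.

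None of the 50 genes was called between tumors and unexposed whole skin. Neither edgeR, which called 0 of 14661 genes in this fit of 4 libraries, nor DESeq2 called a member, and 1 of the 50 had an unadjusted p under 0.05 (5.55% of all genes). The median log2 fold was 0.29 over the mitotic genes and 0.19 over the S phase genes, against -0.06 over all genes, and 44 of the 50 were above 0 (41.9% of all genes). Both tumors lay above both whole skin libraries for 32 genes (22.5% of all genes) and below them for 1, Ccne2 (12.2%).

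Plk1 had 20.2 and 22.6 CPM in tumors, against 10.6 and 4.996 CPM in whole skin. It was the gene with the smallest p and the highest log2 fold (1.35 ± 0.47, adjusted p = 0.891), and its groups did not overlap. Cdca8 had 42.7 and 38.5 CPM in tumors, against 25.9 and 25.3 CPM in whole skin. Both tumors were above both controls (0.58 ± 0.26, adjusted p = 0.897). Tpx2 had 60.1 and 53.1 CPM in tumors, against 39.5 and 36.8 CPM in whole skin (0.49 ± 0.24, adjusted p = 0.911). Tk1, thymidine kinase, had 56.2 and 50.4 CPM in tumors, against 32.4 and 40.1 CPM in whole skin (0.48 ± 0.26, adjusted p = 0.911). Ccne1 had 29.3 and 24.8 CPM in tumors, against 11.8 and 20.5 CPM in whole skin (0.68 ± 0.38, adjusted p = 0.911). In all 3 the tumors stood above the whole skin libraries. Rrm2 had 109 and 83.6 CPM in tumors, against 41.9 and 81.9 CPM in whole skin (0.57 ± 0.37, adjusted p = 0.922). Kif23, a motor of the central spindle, had 45.4 and 35.04 CPM in tumors, against 72.2 and 37.5 CPM in whole skin. It had the lowest log2 fold (-0.54 ± 0.39, adjusted p = 0.932), and without whole skin library 0 the value was 0.04. Whole skin library 0 held 60.0 CPM of Cenpf and 196 CPM of Mki67, against 23.6 and 119.9 CPM in library 1. Without whole skin library 0, 6 of the 50 were called up and 0 down, where 8.18% of all genes were called up and 11.8% down. Without library 1, 12 were called up and 3 down, where 18% of all genes were called up and 18.2% down. Each of these fits has a single control.

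Whole skin itself had far more of these transcripts than the epidermis of unexposed mice of the same week. Of the 50 genes 43 were higher and 1 lower in whole skin, where 31.9% of 15126 genes were called higher and 23.7% lower. Both whole skin libraries lay above both controls for 48 genes (41.7% of all genes) and below them for 2, Cdca8 and Ttk (33.2%). Medians were 1.92 over the mitotic and 1.23 over the S phase genes, against 0.18 over all genes. With library totals as the only scaling, the median of all genes shifted by 0.39 and those of the 2 sets were 2.30 and 1.62. Ccnb1, cyclin B1, had 28.8 and 33.0 CPM in whole skin, against 5.40 and 4.93 CPM in control epidermis. The whole skin values were several times the others (2.58 ± 0.46, adjusted p = 0.000439). Mad2l1 had 35.8 and 43.4 CPM in whole skin, against 10.1 and 8.78 CPM in control epidermis (2.06 ± 0.32, adjusted p = 0.000166). Ccnb2 had 24.0 and 31.4 CPM in whole skin, against 6.58 and 5.39 CPM in control epidermis (2.21 ± 0.40, adjusted p = 0.000525). Nuf2, a kinetochore protein, had 18.7 and 19.3 CPM in whole skin, against 3.71 and 2.31 CPM in control epidermis. It had the highest log2 fold (2.65 ± 0.58, adjusted p = 0.00189), and none of these genes overlapped between the tissues. Of the S phase genes, Mcm3 was higher by 1.65 ± 0.33, Ccne1 by 2.08 ± 0.45 and Cdt1 by 1.48 ± 0.33 (adjusted p = 0.000911, 0.00164 and 0.00196). Cdca8 alone was called lower, with 25.9 and 25.3 CPM in whole skin, against 41.5 and 67.5 CPM in control epidermis (-1.09 ± 0.24, adjusted p = 0.0018). Of the 44 called genes, 34 were called in all 22 alternatives. Whole skin also held 670.1 and 1234 CPM of fibroblast markers, led by Col3a1, and 284 and 463 CPM of macrophage markers, against 68.8 and 72.2 CPM and 35.6 and 32.6 CPM in control epidermis. It held 334 and 127 CPM of hair follicle markers, against 1913 and 1175 CPM. Whether these cells carry the difference was not tested.

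Set against UVB epidermis of week 25, tumors had 0 of 50 genes called in either direction, where 16.8% of 15126 genes were called up and 12.7% down. Unadjusted p was under 0.05 for 10 of the 50, or fewer in proportion than the 39.6% of all genes, and DESeq2 called 3 up. Medians were 0.75 over the mitotic and 0.37 over the S phase genes, against 0.03 over all genes, and 47 of the 50 were above 0 (51.8% of all genes). Both tumors lay above both UVB epidermis libraries for 41 genes (40.5% of all genes) and below them for 2, Cdc6 and Cdca8 (36.7%).

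Hmmr, a spindle protein, had 28.0 and 17.5 CPM in tumors, against 11.3 and 8.04 CPM in UVB epidermis. It had the highest log2 fold (1.23 ± 0.45, adjusted p = 0.056). Mki67 had 174 and 162 CPM in tumors, against 106 and 91.8 CPM in UVB epidermis (0.76 ± 0.28, adjusted p = 0.0573). Ccnb1 had 44.2 and 36.6 CPM in tumors, against 21.8 and 17.7 CPM in UVB epidermis (1.03 ± 0.42, adjusted p = 0.0818). The groups were apart in all 3. Mcm10 had 31.8 and 16.7 CPM in tumors, against 13.4 and 11.4 CPM in UVB epidermis (0.96 ± 0.39, adjusted p = 0.0795). Mcm2 had 64.8 and 52.4 CPM in tumors, against 40.8 and 31.4 CPM in UVB epidermis (0.70 ± 0.34, adjusted p = 0.144). Ccne1 had 29.3 and 24.8 CPM in tumors, against 15.4 and 16.97 CPM in UVB epidermis (0.74 ± 0.41, adjusted p = 0.199). Tumors were again above in all 3, with tumor 0 the higher of the pair. Cdc6 had 20.5 and 17.2 CPM in tumors, against 22.0 and 28.4 CPM in UVB epidermis, the lowest log2 fold (-0.42 ± 0.31, adjusted p = 0.353). In a fit of these 4 libraries alone 35 genes were called up, where 27.6% of all genes were. Without either control of week 15 the number was 9, where 16.6% to 16.8% of all genes were called up. It was 3 without either whole skin library (19.3% to 19.4%) and 1 without either control of week 2 (17%). Outside the fit of 4 libraries these numbers lay near or below the share of all genes. Fibroblast markers summed to 1271 and 1659 CPM in tumors, against 269 and 141 CPM in UVB epidermis, and macrophage markers to 517 and 711 CPM, against 152 and 117 CPM. The tissue layers taken differ between these groups, so tumor and layer cannot be told apart here.

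The tumor difference was smaller than the week 25 UVB difference for 47 of the 50 genes, but the difference of the differences was called for none. It was above 0 for 3 of the 50 and for 44.5% of all genes. EdgeR called 14 of 15126 genes (0.0926%), 17 of the 50 had an unadjusted p under 0.05 (15.7% of all genes), and DESeq2 called 0 of the 50. Medians were -1.18 over the mitotic and -0.75 over the S phase genes, against -0.09 over all genes. Mad2l1 had -1.39 ± 0.44 (adjusted p = 0.191), Birc5 -1.51 ± 0.52 (adjusted p = 0.213) and Cdt1 -1.30 ± 0.45 (adjusted p = 0.212). Pbk, a mitotic kinase, had -1.51 ± 0.57, Mcm3 -1.09 ± 0.45 and Ccne1 -1.34 ± 0.60. Nuf2 was lowest at -1.72 ± 0.77 and Cdca8 highest at 0.74 ± 0.33 (adjusted p = 0.31 and 0.309). The control libraries of both comparisons enter this difference.

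**Figure D4:**
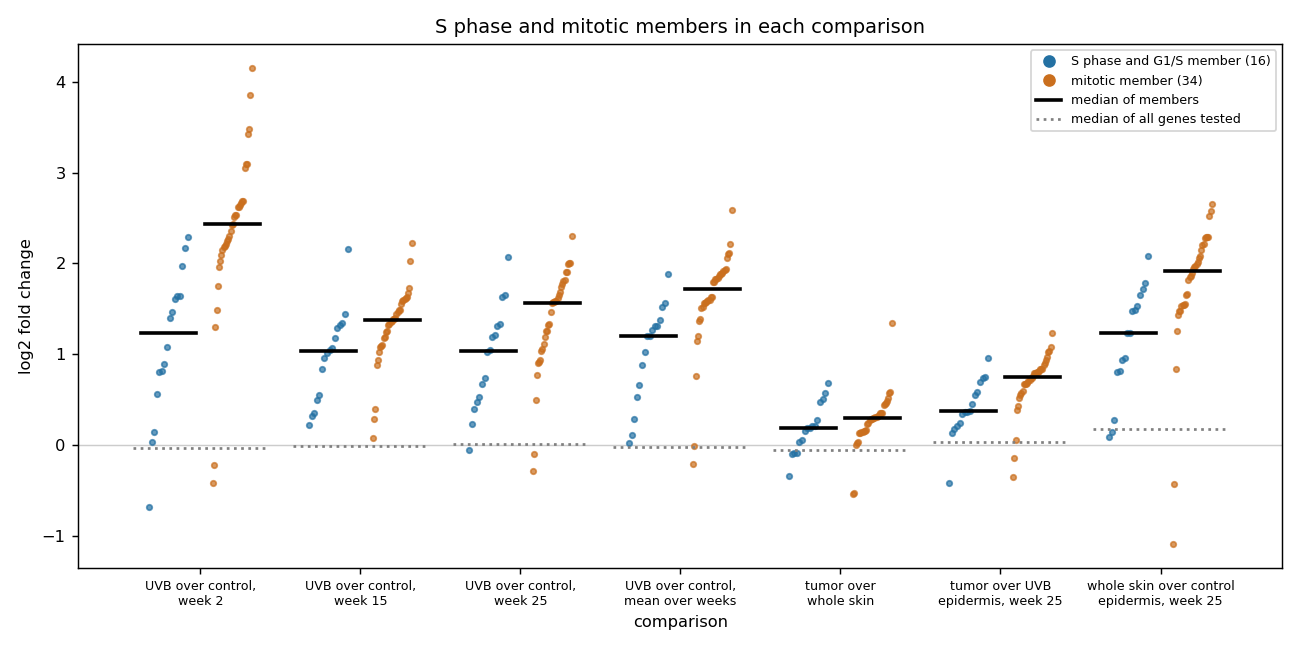
Log2 fold changes of the 16 S phase genes (blue) and the 34 mitotic genes (orange) in 7 comparisons, 1 point per gene in order of size, with the median of each set (black bar) and of all genes tested (dotted line). The mitotic median is above the S phase median in each comparison, 2.43 beside 1.24 at week 2 and 0.29 beside 0.19 for tumors over whole skin.

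Other cell cycle genes were followed as 4 lists. Of 42 other DNA replication genes 32 rose and 0 fell in UVB epidermis over the weeks together (21, 1 and 13 up at weeks 2, 15 and 25), and of 57 other mitosis genes 50 rose and 2 fell (39, 3 and 19 up). Over the weeks together 14.4% of all genes were called up and 15.1% down. At weeks 2, 15 and 25 the shares of all genes called up were 8.09%, 1.85% and 10.6%. The 1 replication gene of 42 at week 15 was close to the share of that week. Timeless, of the fork protection complex, ran from 12.6 to 41.9 CPM in the 6 UVB libraries, against 4.23 to 17.7 CPM in the 6 controls (1.32 ± 0.18, adjusted p = 0.000498). Asf1b, a histone chaperone, ran from 9.97 to 23.0 CPM in the UVB libraries, against 2.47 to 9.66 CPM in the controls. Only the second of these kept its arms apart (1.72 ± 0.25, adjusted p = 0.000666). Cenpa, the centromeric histone, ran from 27.3 to 60.5 CPM in the UVB libraries, against 6.77 to 34.1 CPM in the controls (1.79 ± 0.24, adjusted p = 0.000464). The motor gene Kif14 rose by 2.03 ± 0.28 (adjusted p = 0.000528). The mitosis genes that fell were Kif4, a chromosome motor (-0.48 ± 0.12, adjusted p = 0.013), and Ckap2l, a spindle protein (-0.39 ± 0.13, adjusted p = 0.0416), and Espl1, separase, fell at week 2 (-0.90 ± 0.27, adjusted p = 0.0429). The call of Ckap2l was lost in 11 of 17 alternatives (adjusted p = 0.0156 to 0.154), that of Espl1 in 11 of 19 (0.0168 to 0.248) and that of Kif4 in 2 of 17 (up to 0.0625). Their levels were those of expressed genes, as for Cdca8 and Ttk: Ckap2l ran from 50.5 to 69.8 CPM in the UVB libraries, against 60.4 to 96.1 CPM in the controls.

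Of 19 tested G1 cyclins, CDKs and E2F factors, 7 rose and 1 fell over the weeks together, beside the 14.4% up and 15.1% down of all genes. E2f8, an atypical E2F that represses E2F targets, ran from 27.9 to 52.1 CPM in the UVB libraries, against 5.08 to 15.1 CPM in the controls. E2f2, a G1/S activator, ran the other way, from 72.6 to 97.1 CPM in the UVB libraries, against 104 to 174 CPM in the controls. Neither overlapped (1.91 ± 0.22, adjusted p = 0.000233, and -0.69 ± 0.11, adjusted p = 0.00118). E2f6 rose by 0.79 ± 0.16 (adjusted p = 0.00332). Of 19 tested inhibitors and brakes, 4 rose and 3 fell, beside the same shares of all genes. Ccng1, a target of p53, ran from 90.6 to 259 CPM in the UVB libraries, against 37.7 to 76.5 CPM in the controls (1.31 ± 0.26, adjusted p = 0.00322). Rbl1, the pocket protein p107, rose by 0.79 ± 0.16 (adjusted p = 0.00376), while Rbl2, its relative p130, fell by 0.54 on the log2 scale (adjusted p = 0.00446), and so did Fbxw7, part of the ligase that degrades cyclin E (-0.66 ± 0.19, adjusted p = 0.0195, lost in 3 of 17 alternatives, up to 0.0635). At week 25 the medians were 0.70 for replication, 1.02 for mitosis, 0.10 for the G1 list and 0.09 for the inhibitors, beside 0.01 for all genes.

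Cdkn2a, the locus of p16 and p19Arf, had 0.376 and 1.04 CPM in UVB epidermis at week 2, against 1.33 and 0.423 CPM in control epidermis. At week 15 it had 13.1 and 30.1 CPM in UVB epidermis, against 0.395 and 3.54 CPM in control epidermis (3.37 ± 0.67, adjusted p = 0.0283), and at week 25 it had 40.0 and 41.8 CPM in UVB epidermis, against 3.54 and 5.54 CPM in control epidermis (3.13 ± 0.61, adjusted p = 0.00782). This inhibitor was near 0 in all week 2 libraries and apart between the arms at both later weeks. Its call was lost in 4 of 19 alternatives at week 15 (adjusted p up to 0.226) and in 1 of 19 at week 25 (up to 0.0612). In tumors it stood at 39.5 and 40.0 CPM, against 2.79 and 20.3 CPM in whole skin, where no gene of the 4 lists was called by edgeR and 3 had an unadjusted p under 0.05. Against UVB epidermis of week 25, tumors had 2 of 20 tested inhibitors called up and 7 down, where 16.8% of all genes were called up and 12.7% down. Cdkn1a, p21, had 157 and 185 CPM in tumors, against 293 and 323 CPM in UVB epidermis (-0.85 ± 0.15, adjusted p = 0.000781). It was lower in whole skin as well, with 137 and 127 CPM, against 339.6 and 329.9 CPM in control epidermis (-1.34 ± 0.15, adjusted p = 1.49e-05). Cdkn1c, p57, had 17.003 and 17.5 CPM in tumors and 30.4 and 27.5 CPM in whole skin, against 0.458 CPM or less in each epidermis library of week 25.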

How the data were processed

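The deposited table holds raw read counts per gene for 16 libraries. Per the submitters' processing notes, the authors used HISAT2, Picard, featureCounts and DESeq2 with mm10. Versions and the strand setting are not given. The values lie under the ceiling of 1.83 to 2.11 counts per base that removal of duplicates leaves, so levels of strongly expressed genes are compressed. All columns of the table belong to a sample, and 0 without one were used.

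From these counts edgeR's quasi-likelihood test (edgeR 4.0.16, limma 3.58.1, R 4.3.3) was run with TMM scaling, filterByExpr (minimum count 10, minimum total 15), a prior count of 0.125 and Benjamini-Hochberg adjustment over all genes, with a threshold of 0.05. The 12 epidermis libraries were fitted by group, or with week and UVB as terms. Tumors and whole skin were fitted alone, and all 16 libraries together for comparisons across tissues. CPM values use TMM sizes of all 16. The tests were tested on simulated data with known changes. DESeq2 1.42.0, other scalings, no filter, a replicate block, other sets of libraries and leaving out each library were alternatives.

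The genes and lists were chosen with earlier results of these data known. Any of the 50 could be named. In each comparison the 3 S phase and 3 mitotic genes with the smallest p, and the lowest and highest log2 fold, are named with their log2 fold, and from each other cell cycle list up to 2 called genes in each direction, of which some are left out for length. Levels of Cdkn2a, Cdkn1a and Cdkn1c in groups outside their called comparisons were added after their values were seen. Promoters for Foxm1, Kif20a, Tpx2, Pbk, Aurkb, Ccna2, Ccne2 and Mcm4 are not shown.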

Additional observations from a re-analysis of the deposited data

Results flagged for a closer look

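Cdc6, which loads the MCM helicase, stood on opposite sides of its controls at 2 times. At week 2 it had 24.3 and 23.3 CPM in UVB epidermis, against 25.3 and 50.4 CPM in control epidermis, and at week 25 it had 22.0 and 28.4 CPM in UVB epidermis, against 16.9 and 17.4 CPM in control epidermis. Cdc6 was found by searching the 50 genes for such a pattern. Both UVB libraries lay below both controls for 28.9% of all genes at week 2, and above both for 37.1% at week 25. The week 2 control with 50.4 CPM was library 1, the shallowest of all. The difference of the log2 folds of Cdc6, week 25 minus week 2, was 1.21 ± 0.45 and did not pass the threshold (edgeR's quasi-likelihood test, adjusted p = 0.115).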

How the results depend on the processing

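Over the weeks together 43 to 45 genes were called up without each library in turn, where 10.7% to 16.6% of all genes were called up. Under DESeq2 the genes called of all tested were 1006 at week 15, 50 for week 15 minus week 2, 1758 for week 25 minus week 2, 63 for week 25 minus week 15, 3030 for controls of week 25 over week 2, 66 for tumors over whole skin and 328 for the tumor minus UVB difference. With no filter on low counts they were 1146, 26, 1612, 15, 2808, 1 and 112. In a fit of all 16 libraries they were 234 at week 15, 1779 at week 25, 517 for week 25 minus week 2, 864 for the controls and 7 for tumors over whole skin. In fits of only 4 libraries they were 684 at week 2, 4562 at week 25 and 6974 for tumors over UVB epidermis. Of the 50, DESeq2 called 31 up at week 15, 11 in the controls and 3 in tumors over UVB epidermis. The DESeq2 numbers of all genes at week 2, at week 25, over the weeks together and in tumors over UVB epidermis are not given here. The DESeq2 counts of the 50 there thus have no share beside them. No filter gave 34, 13 and 2, library totals 3, 3 and 2, and RLE factors 2 in tumors over UVB epidermis. The numbers of all genes called under library totals and RLE factors are not given here. Whether the 50 moved more than all genes did under these scalings cannot be read from these counts. Fits of 4 libraries gave 2 at week 15, 41 at week 25 and 35 in tumors over UVB epidermis. For week 25 minus week 2, DESeq2 and no filter called 3 down. The controls had 0 down under library totals, a replicate block or all 16 libraries. Without the G1/S regulators the S phase median was -0.58 for week 25 minus week 2 and 0.67 in the controls. Library totals gave whole skin medians of 2.30 and 1.62, and moved the median of all genes by 0.12 at week 2, 0.17 at week 25, 0.16 and 0.39 for tumors and whole skin over epidermis and -0.22 for the tumor minus UVB difference.

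A replicate block gave 12 genes up at week 15 and 235 of all genes for tumors over whole skin. Its number of all genes at week 15 is not given here. Library numbers are shared across groups, but deviations of same-numbered libraries correlated at -0.17 to 0.26 over 28 group pairs, with 8 over 0.1, so the numbers were not taken as pairs.

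Without each library in turn, all genes called ranged from 125 to 4377 at week 2, 26 to 1463 at week 15, 519 to 3936 at week 25, 0 to 800 for week 15 minus week 2, 71 to 3454 for week 25 minus week 2, 0 to 1 for week 25 minus week 15, 155 to 4588 for the controls, 5 to 5488 for tumors over whole skin, 2089 to 5477 for tumors over UVB epidermis and 0 to 1265 for the tumor minus UVB difference. Of the 50, those called up ranged from 6 to 42 at week 2, 0 to 41 at week 15, 1 to 37 at week 25, 0 to 1 for week 25 minus week 2, 0 to 13 in the controls, 0 to 12 for tumors over whole skin and 0 to 9 over UVB epidermis. Those called down ranged from 0 to 1 at week 2 and in the controls and 0 to 3 for week 25 minus week 2 and for tumors over whole skin. S phase medians ranged from 0.68 to 1.49 at week 15, -0.43 to 0.33 for week 15 minus week 2, -0.62 to -0.046 for week 25 minus week 2 and -0.49 to 0.24 for week 25 minus week 15. Mitotic medians ranged from 0.87 to 2.27 at week 15, -1.65 to -0.31 for week 15 minus week 2 and -0.80 to 0.64 for week 25 minus week 15. Signs turned for Birc5 (-0.31) and E2f1 (-0.60) in week 25 minus week 15 without week 15 control library 1, with ranges up to 1.14 and 1.25, and for Kif23 in tumors over whole skin, at 0.041 without whole skin library 0 and -0.92 without library 1. The cause of these shifts was not tested. With 2 libraries per group and 2905165 to 7959503 counts, low genes such as Plk1 in week 2 controls rest on few counts.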
